A study of Mus musculus with 22 samples.

Results

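The 10 genes described here bring glucose into the cell and carry it through glycolysis to lactate. They are Slc2a1, a glucose transporter, the hexokinases Hk1 and Hk2, the phosphofructokinase subunits Pfkm, Pfkl and Pfkp, the aldolase Aldoa, the phosphoglycerate kinase Pgk1, and the lactate dehydrogenase subunits Ldha and Ldhb. They were chosen by name, and all 10 were found among the 34378 gene names of the deposited expression table and among the 18056 genes measured here. RNA was profiled on Agilent 1-colour arrays, which hold short DNA probes and report the brightness of labelled RNA bound to each. The cells were cardiac fibroblasts (CF). All 11 groups came from the CD1 strain and carry the aMHC-GFP genotype, in which the promoter of a cardiac myosin gene drives a green fluorescent reporter. The labels name no sort for the reporter.

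MGT groups of days 3, 5, 7, 10 and 14 had received a retrovirus with a polycistronic transgene of 3 cardiac transcription factors, Mef2c, Gata4 and Tbx5, used to turn fibroblasts into induced cardiomyocytes. The lacZ groups of the same days had received a virus with lacZ, a bacterial enzyme gene, and 1 group of untransduced fibroblasts was taken at day 0. Each group had 2 arrays, 22 in all. Whether the 2 arrays of a group stem from separate cultures or animals is not stated in the labels. The p-values therefore measure only how far these samples spread, which may be technical.

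Glycolysis splits glucose into pyruvate, and lactate dehydrogenase turns pyruvate into lactate when it is not burned in mitochondria. Several steps have isoforms with tissue preferences. Hk2 is the hexokinase of heart, skeletal muscle and fat, and Hk1 the one of brain and many other tissues. Pfkm is the muscle subunit of phosphofructokinase, the committed step of the pathway, while Pfkl was named for liver and Pfkp for platelets. Ldhb is the subunit that prevails in adult heart, and Ldha the one that prevails in skeletal muscle and in cells that release lactate. The fetal heart relies on glycolysis more than the adult heart, which burns mainly fatty acids.

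A level below is the log2 of the processed spot intensity over the 75th percentile of its array. A difference is a log2 difference between groups, with its standard error (SE) taken from 1 limma fit over all arrays. A gene was called when its p-value, adjusted by Benjamini-Hochberg over all genes tested, was below 0.05. The 75th percentile of the intensity lay between 1285 and 2124 on 21 arrays and at 729 on the second day 14 lacZ array, which also had the lowest share of spots well above background, 48.4% against up to 71.0% on the others. Arrays lay on 4 slides, each scanned separately. Days 3 and 5 shared the first slide and days 7 and 10 the second, so MGT and lacZ are compared within a slide on these 4 days. At day 14 the MGT arrays had a slide of their own and the lacZ arrays shared the fourth with day 0, so slide and group cannot be told apart there. Of the 9 fibroblast markers listed, all 9 were well above background on both arrays of every group. Averaged over the 5 days, 8 were called lower and 1 higher with MGT than with lacZ, and all 9 cardiomyocyte markers were called higher. Over all genes, 40.7% were called lower and 23.3% higher. At day 3, 4 fibroblast markers were lower and 1 higher, and 7 of the 9 cardiomyocyte markers were higher, beside 18.1% and 12.4% of all genes. Pln was well above background on 0 of the 10 lacZ arrays of days 3 to 14, Ryr2, Ttn and Actn2 on 2 each and Tnni3 on 6, and no size is given for the cardiomyocyte list. The RNA came from bulk samples, so fewer cells of a type and less RNA per cell cannot be told apart in any result below.

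With MGT, Hk2, Ldhb, Pfkm, Pfkp and Hk1 were higher than with lacZ when the 5 days were averaged, by 1.62-, 1.38-, 1.33-, 1.27- and 1.13-fold. Pgk1, Ldha and Aldoa were called lower, by 0.37, 0.25 and 0.18 on the log2 scale, but with quantile normalization Ldha differed by 0.02 and Aldoa by 0.11, the opposite direction. Slc2a1 and Pfkl were not called. Thus 5 of 10 genes were called higher and 3 lower, where 23.3% of all genes tested were called higher and 40.7% lower. With quantile normalization 6 were called higher and 1 lower, where 11290 of all 18055 genes were called in either direction. The median difference of the 10 genes was 0.05, beside -0.09 over all genes. The plot of levels on every array shows the course of each gene.

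**Figure D1:**
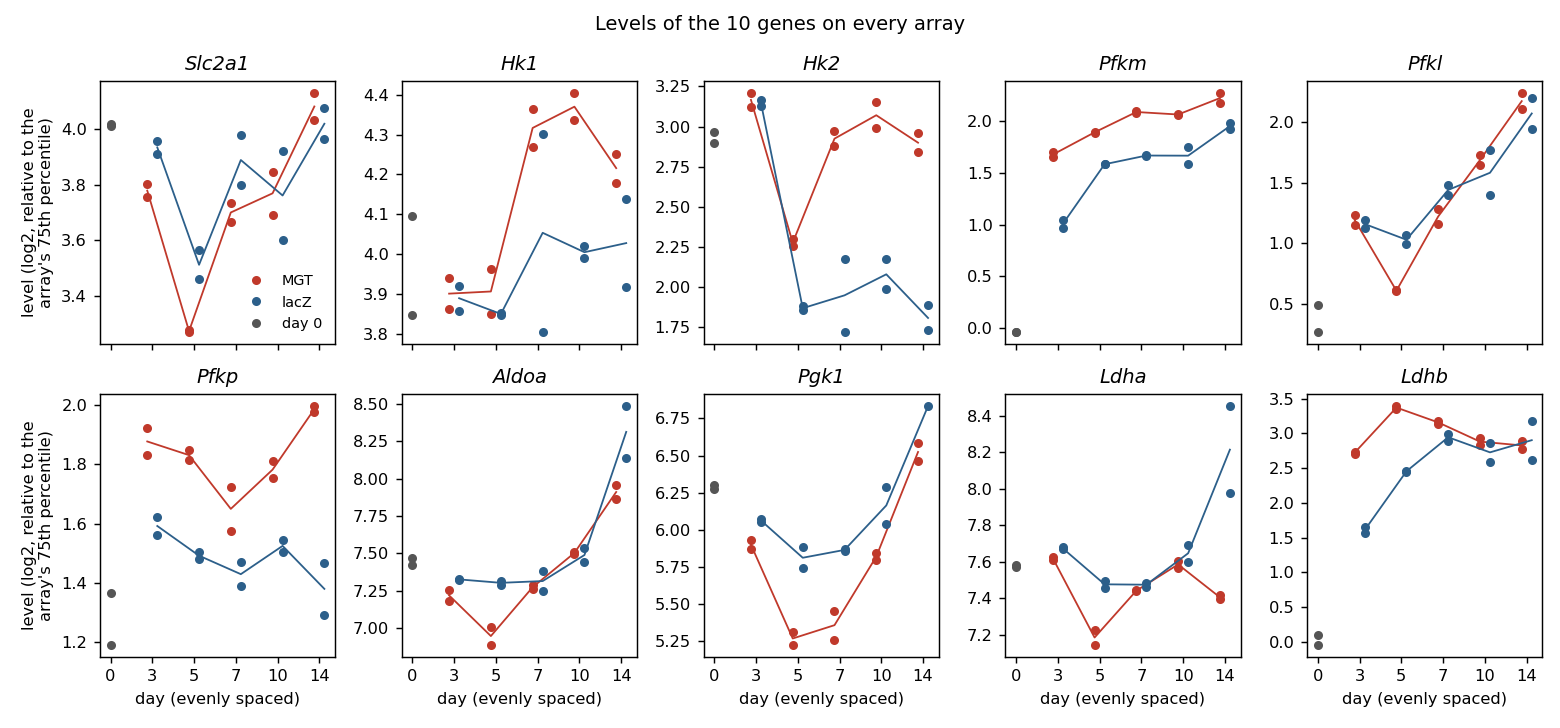
Level of each gene on every array (log2, relative to the array's 75th percentile, with a scale of its own per panel) by day, the days evenly spaced. Points are single arrays, lines join group means, and red points (MGT) stand left of blue points (lacZ) of the same day, with day 0 in grey at the left. Hk2 lay between 2.26 and 3.21 on MGT arrays and between 1.72 and 3.16 on lacZ arrays. All MGT arrays of Pfkm lay above the lacZ arrays of their day, beside 24.8% to 32.2% of 17922 genes on a given day, with no share computed over all days together.

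By day, the calls were spread unevenly. At day 3, 3 of the 10 genes (Pfkm, Pfkp, Ldhb) were called higher and 0 lower, beside 12.4% and 18.1% of all genes. At day 5, 4 were higher (these and Hk2) and 4 lower (Pfkl, Aldoa, Pgk1, Ldha), beside 16.2% and 21.9%. At day 7, 3 were higher (Hk2, Pfkm, Pfkp) and Pgk1 alone lower, beside 14.9% and 22.4%. At day 10, 4 were higher (these and Hk1) and Pgk1 again lower, beside 15.2% and 24.2%. At day 14, 3 were higher (Hk2, Pfkm, Pfkp) and 3 lower (Aldoa, Pgk1, Ldha), beside 18.3% and 29.3%. The 3 lower calls depended on the scaling, since quantile normalization and the deposited table each gave 4 higher and 0 lower at day 14. All-gene calls in either direction were then 8267 of 18056 and 10519 of 34378. The change of the difference between day 3 and day 14 was called upward for Hk2 and Pfkp and downward for Pfkm, Ldha and Ldhb, 2 and 3 genes beside 12.3% and 15.2% of all genes.

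**Figure D2:**
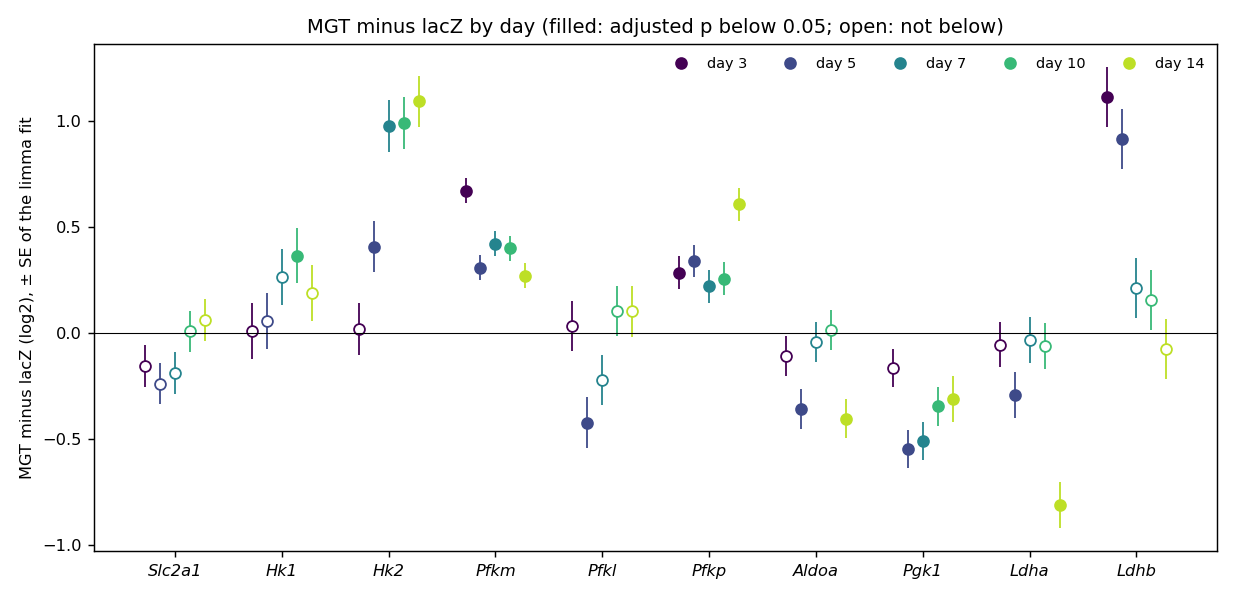
Difference between MGT and lacZ (log2) for each gene and day, with bars of ± SE of the limma fit. Filled points had an adjusted p below 0.05 and open points did not. Hk2 stands at 0.02 on day 3 and 1.09 on day 14, and Ldhb at 1.11 on day 3 and -0.08 on day 14. The day 14 points of Aldoa, Pgk1 and Ldha lie below 0 in this scaling, and those of Aldoa and Pgk1 lie above 0 with quantile normalization.

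Slc2a1 encodes GLUT1, the transporter that most cultured cells use for basal glucose uptake, and it was not called in any comparison. Its group means lay between 3.27 (day 5 MGT) and 4.08 (day 14 MGT), a range of 0.81, and 7 of the 10 pairs of neighbouring groups in that order overlapped. It was lowest at day 5 in both arms, with 3.28 and 3.27 on MGT arrays against 3.56 and 3.46 on lacZ arrays. Averaged over days it differed by -0.10 (SE 0.04, adjusted p = 0.0557, limma). Within the first slide the difference was -0.20 (adjusted p = 0.0328) and within the second -0.09 (adjusted p = 0.305). Without the first day 10 lacZ array the averaged value was -0.13 (adjusted p = 0.00528), and it also passed without the first day 7 lacZ, second day 10 MGT or first day 14 lacZ array.

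Hexokinase traps glucose in the cell as glucose 6-phosphate. The Hk2 arrays with MGT read 3.12 and 3.21 at day 3, 2.30 and 2.26 at day 5, 2.97 and 2.88 at day 7, 2.99 and 3.15 at day 10, and 2.84 and 2.96 at day 14. Those with lacZ read 3.13 and 3.16 at day 3, 1.88 and 1.85 at day 5, 1.72 and 2.18 at day 7, 1.98 and 2.17 at day 10, and 1.88 and 1.73 at day 14, and day 0 read 2.97 and 2.89. The arms overlapped at day 3, both were lower at day 5, and from day 7 the MGT arrays lay near the day 0 level while the lacZ arrays stayed about 1 unit below it. The difference was 0.02 (SE 0.12, adjusted p = 0.938) on day 3 and 0.41 (adjusted p = 0.0173) on day 5. On days 7, 10 and 14 it was 0.98 (adjusted p = 2.58e-05), 0.99 (2.24e-05) and 1.09 (8.57e-06), the last a 2.13-fold difference. Only the day 5 call depended on every array, since without any 1 of the 4 arrays of that day its adjusted p lay between 0.054 and 0.0848. The change from day 3 to day 14 was 1.07 (SE 0.17, adjusted p = 0.000583). Averaged within slides, Hk2 differed by 0.21 on the first (days 3 and 5, adjusted p = 0.058) and by 0.98 on the second (days 7 and 10, adjusted p = 5.08e-07). The Hk2 probe lies at chr6:82675056-82675115 (mm9, minus strand).

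Hk1, the other hexokinase, moved less than Hk2 on the probe used, and its 2 probes differed. The probe used, the brighter one, begins at base 3844 of the transcript, and its group means lay between 3.85 (day 5 lacZ) and 4.37 (day 10 MGT). MGT arrays read 4.37 and 4.27 at day 7 and 4.40 and 4.34 at day 10, against 3.80 and 4.30 at day 7 and 4.02 and 3.99 at day 10 on lacZ arrays. The second day 7 lacZ array stood as high as the MGT arrays. Without it the day 7 difference was 0.51 (adjusted p = 0.00385), against 0.26 (adjusted p = 0.142) with it. Day 10 gave the only call of a single day, 0.37 (SE 0.13, adjusted p = 0.0423), and it was lost without any 1 of its 4 arrays (adjusted p from 0.0969 to 0.16). Averaged over days Hk1 differed by 0.18 (SE 0.06, adjusted p = 0.0181), by 0.03 within the first slide (adjusted p = 0.798) and by 0.31 within the second (adjusted p = 0.0128), and by 0.14 after normexp background correction, where it failed the test (adjusted p = 0.0741). The other Hk1 probe, which begins at base 2983, differed by 0.54 (adjusted p = 0.026) at day 10 and by 1.07 (adjusted p = 0.000236) at day 14, where the used probe gave 0.19 (SE 0.13, adjusted p = 0.263). The probe from base 2983 averaged 0.32 (adjusted p = 0.00233, same fit on all probes). Its change from day 3 to day 14 was 1.05 (0.00774), against 0.18 (0.568) for the used probe in that fit. The sequence of the probe from base 2983 is shown because it carries a day 14 difference that the used probe does not. It lies at chr10:61732717-61732776 (mm9, minus strand).
Hk1 probe from base 2983: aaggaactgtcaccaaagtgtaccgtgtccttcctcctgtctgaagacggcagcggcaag

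Phosphofructokinase commits sugar to glycolysis, and the enzyme is built of 4 subunits drawn from Pfkm, Pfkl and Pfkp. Pfkm was higher with MGT on each day. Its MGT arrays read 1.70 and 1.65 at day 3, 1.89 and 1.90 at day 5, 2.08 and 2.10 at day 7, 2.07 and 2.06 at day 10, and 2.28 and 2.18 at day 14. The lacZ arrays read 1.04 and 0.97 at day 3, 1.58 and 1.59 at day 5, 1.67 and 1.66 at day 7, 1.75 and 1.59 at day 10, and 1.98 and 1.93 at day 14, and both day 0 arrays read -0.04. The Pfkm arms did not overlap on any day. On a given day, MGT lay above lacZ without overlap for 24.8% to 32.2% of 17922 genes. No share over all 5 days together was computed, here or for the genes below. All virus-treated Pfkm arrays lay above day 0. The difference was largest on day 3, with 0.67 (SE 0.06, adjusted p = 1.81e-06). On days 5, 7, 10 and 14 it was 0.31 (adjusted p = 0.000937), 0.42 (7.24e-05), 0.40 (0.000118) and 0.27 (0.00203). It was smaller at day 14 than at day 3 by 0.40 (SE 0.08, adjusted p = 0.00339). The averaged difference of 0.41 (SE 0.03, adjusted p = 1.09e-08) was 0.49 within the first slide (5.11e-07) and 0.41 within the second (2.24e-06). The Pfkm probe, spotted 10 times per array, lies at chr15:97962713-97962772 (mm9, plus strand). Each Pfkm level is thus a mean over up to 10 spots, against 1 spot for the probes of the other genes described here.

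Pfkp, the platelet subunit, was also higher with MGT on each day. MGT arrays read 1.92 and 1.83 at day 3, 1.85 and 1.81 at day 5, 1.72 and 1.57 at day 7, 1.75 and 1.81 at day 10, and 1.997 and 1.98 at day 14. The lacZ arrays read 1.56 and 1.62 at day 3, 1.48 and 1.503 at day 5, 1.39 and 1.47 at day 7, 1.54 and 1.51 at day 10, and 1.47 and 1.29 at day 14, and day 0 read 1.19 and 1.37. MGT and lacZ arrays did not overlap on any day, beside 24.8% to 32.2% of 17922 genes with MGT above on a given day. With this probe, from base 2138, the gap was widest at day 14. The difference averaged 0.34 (SE 0.03, adjusted p = 1.25e-06), 0.31 within the first slide (0.000359) and 0.24 within the second (0.0024), and it was 0.61 (SE 0.08, adjusted p = 2.78e-05) at day 14. Differences at days 3, 5, 7 and 10 were 0.29, 0.34, 0.22 and 0.26. Of these, day 3 failed without the first array of either arm (adjusted p = 0.0904 without lacZ, 0.101 without MGT) and day 10 without the second (0.0701 and 0.101). Day 7 failed without the first MGT, first lacZ or second lacZ array (0.283, 0.185 and 0.0597). The upward change from day 3 to day 14 of 0.32 (SE 0.11, adjusted p = 0.0431) rests on day 14, since with day 10 in its place the value was -0.03 (adjusted p = 0.907), and it was called without 1 array only where that array was the first of day 14 lacZ. A second probe, from base 3922, averaged 0.19 (SE 0.09, adjusted p = 0.106) and was not called on any day. It gave 0.12 (adjusted p = 0.666) at day 14 and its largest value, 0.45 (0.133), at day 7. The used probe spans chr13:6581718-6583872 (mm9, minus strand), a stretch longer than its 60 bases, as for a probe across a splice junction.

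Pfkl, the liver subunit, differed more between days than between arms. Its group means ran from 0.38 at day 0 and 0.61 at day 5 MGT to 2.18 at day 14 MGT, with 2.07 at day 14 lacZ. Averaged over days it differed by -0.08 (SE 0.05, adjusted p = 0.205), and without the first day 10 lacZ array by -0.12 (adjusted p = 0.0358). Day 5 stood apart, with 0.61 on both MGT arrays against 1.07 and 0.99 on lacZ arrays, a difference of -0.42 (SE 0.12, adjusted p = 0.0127). That call passed when the second day 5 lacZ array was left out, and failed without the other lacZ array (adjusted p = 0.0758) or without the first or second MGT array (0.0579 and 0.0522).

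Aldoa and Pgk1 stand in the middle of the pathway. Aldolase splits the 6-carbon sugar, and Pgk1 makes ATP from the 3-carbon products. Pgk1 arrays with MGT read 5.93 and 5.87 at day 3, 5.22 and 5.31 at day 5, 5.26 and 5.45 at day 7, 5.84 and 5.79 at day 10, and 6.46 and 6.59 at day 14. With lacZ they read 6.07 and 6.05 at day 3, 5.74 and 5.88 at day 5, 5.87 and 5.86 at day 7, 6.04 and 6.29 at day 10, and 6.83 on the first day 14 array, while day 0 read 6.27 and 6.30. On the second day 14 lacZ array the scanner software marked the spot as an outlier, so the fit has 1 array there. MGT arrays lay below the lacZ arrays of their day throughout, beside 41.5% to 44.9% of 17922 genes that lay below on a given day. Both arms of Pgk1 were highest at day 14. The averaged difference was -0.37 (SE 0.04, adjusted p = 6.67e-06), with -0.35 within the first slide (0.000606) and -0.43 within the second (0.000119), and it ran from -0.39 to -0.22 over the other 8 settings over all days. Days 3, 5, 7 and 10 gave -0.16 (adjusted p = 0.21), -0.54 (0.000415), -0.51 (0.0007) and -0.35 (0.00903). Day 14 gave -0.31 (adjusted p = 0.0357), or 0.03 (0.863) with quantile normalization. The day 10 call failed without the second lacZ (adjusted p = 0.0835) or second MGT array (0.0578), and the day 14 call without the first MGT array (0.159), and there is no day 14 value without the only lacZ array. The probe lies at chrX:103398640-103398699 (mm9, plus strand).

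Aldoa group means lay between 6.94 (day 5 MGT) and 8.31 (day 14 lacZ). At day 5 MGT arrays read 6.89 and 7.004 against 7.29 and 7.32 with lacZ, a difference of -0.36 (SE 0.09, adjusted p = 0.00814) that failed without the first MGT (0.0755) or second lacZ array (0.0504). At day 14 they read 7.86 and 7.96 against 8.14 and 8.49, a difference of -0.40 (adjusted p = 0.0031) that was 0.31 (0.0687) with the deposited table and 0.35 (0.00875) with quantile normalization. At days 3, 7 and 10 Aldoa was not called, with -0.11, -0.04 and 0.01. Averaged within slides it differed by -0.23 on the first (adjusted p = 0.0109) and by -0.01 on the second (0.885). Day 14 was also the day with the highest summed level of 5 macrophage markers, all well above background in every group. On a linear scale in units of the 75th percentile the sum was 124 with MGT and 168 with lacZ at day 14, against 15.7 to 56.8 on days 3 to 10 and 23.8 at day 0. Of the 5 markers, 0 were called higher and 0 lower with MGT than with lacZ at day 14. The part of macrophages in the day 14 levels of Aldoa, Pgk1 and Ldha was not tested.

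Lactate dehydrogenase is built from Ldha and Ldhb. Ldhb had the widest range of the 10 genes, 3.34 between the lowest and highest group mean. Its MGT arrays read 2.74 and 2.71 at day 3, 3.35 and 3.39 at day 5, 3.18 and 3.13 at day 7, 2.93 and 2.83 at day 10, and 2.88 and 2.77 at day 14. The lacZ arrays read 1.65 and 1.57 at day 3, 2.46 and 2.45 at day 5, 2.996 and 2.89 at day 7, 2.87 and 2.59 at day 10, and 3.18 and 2.62 at day 14, and day 0 read -0.04 and 0.10. Both arms were far above day 0, with MGT ahead at days 3 and 5 and the arms overlapping from day 10. The difference was 1.11 (SE 0.14, adjusted p = 5.18e-05) on day 3, a 2.16-fold difference, and 0.92 (0.000178) on day 5. On days 7, 10 and 14 it was 0.21 (adjusted p = 0.274), 0.15 (0.423) and -0.08 (0.689). The change from day 3 to day 14 was -1.19 (SE 0.20, adjusted p = 0.000838). The 2 day 14 lacZ arrays lay apart, and without the second the day 14 difference was -0.36 (adjusted p = 0.0159). Averaged over the first slide Ldhb differed by 1.01 (adjusted p = 2.22e-06) and over the second by 0.18 (0.147).

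Ldhb has a near copy on the array. Among 12392 genes well above background on all arrays, the one whose 11 group means were most like those of Ldhb was Ldhb-ps, an Ldhb pseudogene (Pearson r = 0.998). The 2 probes align over 59 bases, of which 56 are identical, so RNA of either gene can bind to both and their signals cannot be told apart. The last 30 bases of the alignment hold all 3 mismatches, in capitals. They are shown because the Ldhb results rest on so small a difference, with Ldhb at chr6:142438770-142438799 (minus strand) and Ldhb-ps at chr19:22013032-22013061 (plus strand), both in mm9.
Ldhb: ctgatcaaataaagttagcaattgcaGCaT
Ldhb-ps: ctgatcaaataaagttagcaattgcaAAaA

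Ldha, the lactate-forming subunit, was read by 3 probes that disagreed at day 14. The used probe, the brightest, begins at base 1755. Its MGT arrays read 7.63 and 7.61 at day 3, 7.14 and 7.22 at day 5, 7.44 and 7.44 at day 7, 7.60 and 7.57 at day 10, and 7.39 and 7.42 at day 14. The lacZ arrays read 7.68 and 7.67 at day 3, 7.45 and 7.50 at day 5, 7.46 and 7.48 at day 7, 7.69 and 7.60 at day 10, and 7.98 and 8.46 at day 14, and day 0 read 7.57 and 7.58. The arms lay close together except on days 5 and 14, and on day 14 the lacZ arrays were high and also far from each other. The day 14 difference was -0.81 (SE 0.11, adjusted p = 4.1e-05), but -0.01 (0.921) with the deposited table and -0.09 (0.149) with quantile normalization. In the same fit run on all probes it was 0.07 (adjusted p = 0.693) for the probe from base 351 and -0.16 (0.157) for the probe from base 970. Day 5 showed the reverse order of sizes, with -0.62 (adjusted p = 0.00123) from base 351, -0.62 (0.000108) from base 970 and -0.29 (0.0676) from the used probe, whose own gene-level adjusted p of 0.0466 was lost without any 1 of the 4 arrays (0.0852 to 0.202). The averaged difference of -0.25 (SE 0.05, adjusted p = 0.000459) was -0.17 within the first slide (0.0805), -0.05 within the second (0.641), and 0.02 with quantile normalization over all days. In the fit on all probes, base 351 averaged -0.20 (adjusted p = 0.00589) and base 970 averaged -0.30 (1.64e-05). The probe from base 970 was also lower at day 7 (-0.30, 0.0205) and day 10 (-0.28, 0.0275). There the probe from base 351 gave -0.08 (0.703) and -0.20 (0.232). The change from day 3 to day 14 was -0.76 (adjusted p = 0.00267) for the used probe, 0.21 (0.405) from base 351 and 0.01 (0.974) from base 970. Both other probes, printed because they do not share the day 14 value, lie at chr7:54103010-54103069 and chr7:54107294-54107353 (mm9, plus strand).
Ldha probe from base 351: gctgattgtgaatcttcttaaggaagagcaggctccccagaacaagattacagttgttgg
Ldha probe from base 970: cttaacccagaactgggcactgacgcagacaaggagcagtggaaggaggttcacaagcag

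**Figure D3:**
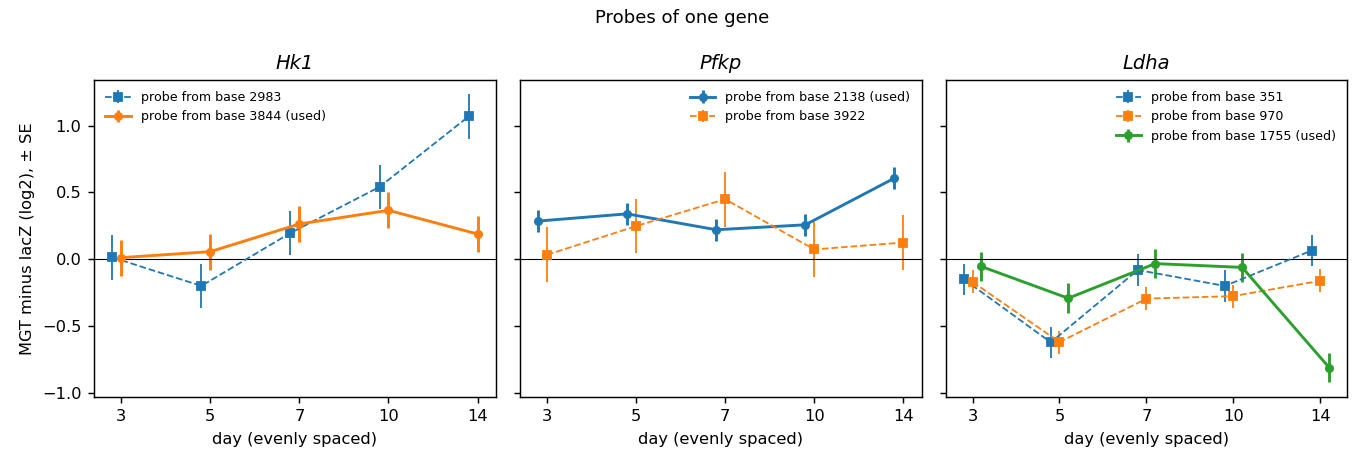
Difference between MGT and lacZ (log2, ± SE) by day, the days evenly spaced, for each probe of Hk1, Pfkp and Ldha, named by its first base in the transcript. Solid lines are the probes used and dashed lines the others. At day 14 the used Ldha probe gave -0.81 and the others 0.07 and -0.16, and the other Hk1 probe gave 1.07 against 0.19 for the used one.

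The rule for these genes sets muscle isoforms beside the others. A ratio within an array does not depend on a single scaling factor per array, but it can change with normalization that depends on brightness. Such a ratio shows unequal change of a pair of genes and never that either stayed the same, and its absolute size mixes the brightness of both probes. For 5 pairs, MGT minus lacZ of the log2 ratio was averaged over days and tested by a two-sided exact permutation of the arrays within days, 7776 arrangements, adjusted over the 5 pairs. By this exact permutation test Ldhb over Ldha was higher with MGT by 0.71 (p = 0.000257, the smallest these arrangements can give, adjusted 0.00129). In the same exact test Hk2 over Hk1 was higher by 0.52 (p = 0.000772, adjusted 0.00129), Pfkm over Pfkl by 0.49 (p = 0.00103, adjusted 0.00129) and Pfkp over Pfkl by 0.42 (p = 0.000772, adjusted 0.00129).

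Pfkm over Pfkp, the muscle over the platelet subunit, differed by 0.07 (p = 0.304, adjusted 0.304, exact permutation). Its daily differences were 0.39, -0.03, 0.20, 0.14 and -0.34 at days 3, 5, 7, 10 and 14. Over days 3 to 10 alone, where the arms share slides, it was higher by 0.17 (adjusted p = 0.0108, exact permutation). Within a single slide the 36 arrangements allow no p under 0.0556, so none can pass there. Slide 1 and slide 2 gave 0.68 and 0.47 for Pfkm over Pfkl, 0.51 and 0.30 for Pfkp over Pfkl, 0.18 and 0.67 for Hk2 over Hk1, and 1.19 and 0.23 for Ldhb over Ldha, all in the same direction as the pooled values. Ratios with Pfkp rest on its probe from base 2138. At day 14 Pfkm differed by 0.27, this Pfkp probe by 0.61 and the other, from base 3922, by 0.12. The sign of Pfkm over Pfkp at day 14 therefore depends on the probe.

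The ratios had different courses. For Pfkm over Pfkl, MGT arrays read 0.55 and 0.42 at day 3 and 1.28 and 1.29 at day 5, against -0.15 and -0.16 at day 3 and 0.52 and 0.59 at day 5 with lacZ, and the arms overlapped at days 10 and 14. For Hk2 over Hk1 the arms overlapped at day 3, and from day 5 all MGT arrays lay above the lacZ arrays of their day. This ratio rests on the used Hk1 probe. At day 14 the other Hk1 probe, from base 2983, differed by 1.07, beside 1.09 for Hk2. The day 14 value of Hk2 over Hk1 therefore depends on the probe. Ldhb over Ldha differed by 1.17, 1.21, 0.25, 0.22 and 0.74 on days 3, 5, 7, 10 and 14, the last value resting on the Ldha probe whose day 14 difference the other probes did not share. That day 14 difference of Ldha was also smaller with quantile normalization, where its averaged difference changed direction.

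**Figure D4:**
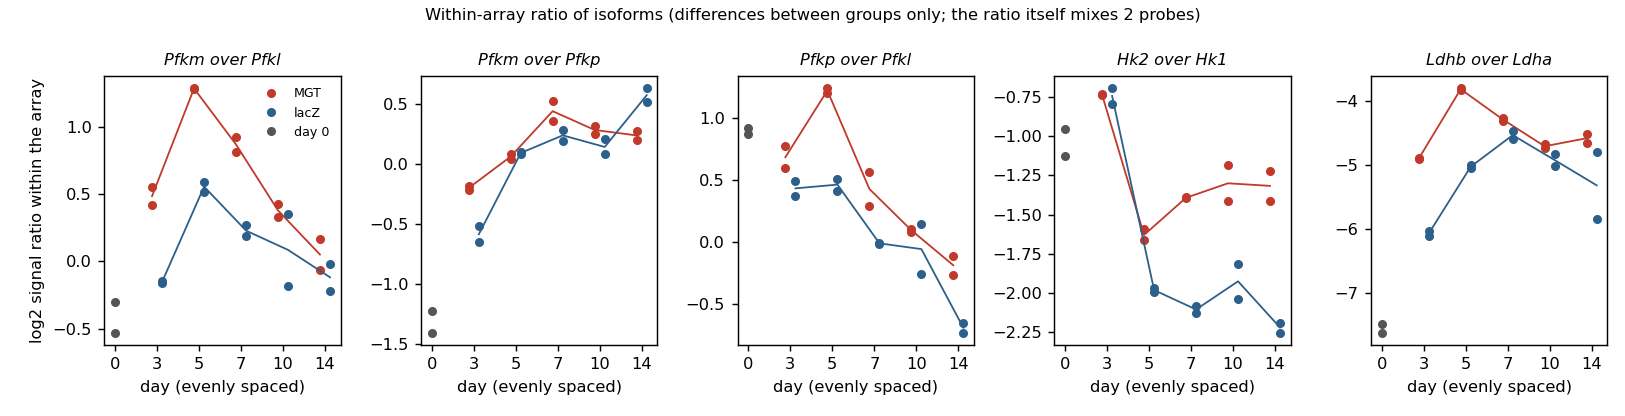
Log2 ratio of the signals of a pair of isoforms within each array, by day, the days evenly spaced. Points are arrays and lines join group means, with MGT (red) left of lacZ (blue) and day 0 in grey at the left. MGT lies above lacZ by 0.49 on average for Pfkm over Pfkl, by 0.52 for Hk2 over Hk1 and by 0.71 for Ldhb over Ldha, and by 0.07 for Pfkm over Pfkp.

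Against untransduced fibroblasts, Ldhb, Pfkm and Pfkl were much higher in both arms. These comparisons share the day 0 arrays, and all but lacZ day 14 cross slides. Day 3 MGT had 4 of the 10 genes called higher (Ldhb, Pfkm, Pfkl, Pfkp) and 2 lower (Pgk1, Aldoa), beside 29.3% and 33.1% of all genes. At day 14 MGT had 6 higher (the same 4 with Aldoa and Pgk1) and 0 lower, beside 33.1% and 37.4%. Day 3 lacZ had 4 higher (Ldhb, Pfkm, Pfkl, Pfkp) and Pgk1 lower, beside 28.8% and 29%. At day 14 lacZ had 6 higher (Ldhb, Pfkm, Pfkl, Aldoa, Ldha, Pgk1) and Hk2 alone lower, beside 35.5% and 33.4%.

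Ldhb exceeded day 0 by 2.69 at day 3 and 2.80 at day 14 with MGT, and by 1.58 and 2.87 with lacZ, 6.95-fold and 7.32-fold at day 14 (SE 0.14, adjusted p = 9.72e-10 and 9.48e-10, limma). Pfkm exceeded it by 1.72 and 2.26 with MGT and by 1.05 and 1.99 with lacZ. For Pfkl the values were 0.81 and 1.80 with MGT and 0.78 and 1.69 with lacZ. These genes thus stood above day 0 with the control virus too. Pfkp was higher by 0.60 and 0.71 with MGT and by 0.31 and 0.10 with lacZ, the last not called (adjusted p = 0.255) with the used probe and 0.87 (0.00245) with the other one. Hk2 at day 14 differed from day 0 by -0.03 with MGT (SE 0.12, adjusted p = 0.832) and by -1.12 with lacZ (adjusted p = 2.24e-06), which shares its slide with day 0. Slc2a1 was not called in any of these comparisons, and neither was Hk1 with its used probe. The other Hk1 probe, from base 2983, was higher than day 0 by 0.80 (adjusted p = 0.000975) at day 14 with MGT.

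The bright genes Aldoa, Pgk1 and Ldha gave smaller values. Aldoa at day 14 was higher than day 0 by 0.47 with MGT (adjusted p = 0.000546) and by 0.87 with lacZ (2.06e-06), and Pgk1 by 0.24 (0.0323) and 0.55 (0.000759). The day 14 MGT call of Pgk1 failed without the first or second day 0 array (0.11 and 0.078) or the second MGT array (0.192). At day 3 Aldoa with MGT (-0.23, adjusted p = 0.0473) and Pgk1 with lacZ (-0.23, 0.0488) were lost without any 1 of their 4 arrays (0.0762 to 0.193 and 0.112 to 0.154). Ldha was higher than day 0 by 0.64 at day 14 with lacZ (adjusted p = 0.000131) and differed by -0.17 with MGT (0.171), a value that was 0.33 with the deposited table and 0.17 with quantile normalization. The other Ldha probes differed from this one. At day 14 with MGT the probe from base 351 was higher than day 0 by 0.56 (adjusted p = 0.000982) and the probe from base 970 differed by 0.14 (0.176). At day 3 with MGT they gave -0.42 (adjusted p = 0.00825) and -0.54 (0.000144), where the used probe gave 0.04 and was not called.

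Other genes of glucose use were taken from 4 lists. Each list's counts below are for the averaged comparison, in which 23.3% of all genes were called higher and 40.7% lower. Among the other glycolysis steps 17 genes were measured, and 5 were higher and 6 lower with MGT in the averaged comparison, with a median of -0.08 beside -0.09 over all genes. The largest differences in this list were those of muscle isoforms. Pgam2, the muscle phosphoglycerate mutase, was higher by 3.85 (SE 0.05, adjusted p = 2.4e-15). Slc2a4, which encodes the insulin-responsive transporter GLUT4 of muscle and fat, was higher by 3.33 (SE 0.05, adjusted p = 1.1e-14), and Eno3, the muscle enolase, by 2.78 (SE 0.05, adjusted p = 1.2e-14).

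Pgam2 arrays with MGT read 1.92 and 2.10 at day 3 and 4.22 and 4.33 at day 14, against -0.60 and -0.56 at day 3 and -0.55 and -0.09 at day 14 with lacZ, and -1.98 and -1.90 at day 0. Its difference widened from day to day, with 2.59, 3.46, 4.08, 4.52 and 4.59 at days 3, 5, 7, 10 and 14. Eno3 differed by 1.98, 2.39, 3.18, 3.21 and 3.13 on these days, and Slc2a4 by 2.09, 3.39, 2.93, 4.01 and 4.21. Slc2a4 read 1.27 and 1.29 with MGT and -0.85 and -0.76 with lacZ at day 3, when Slc2a1 was not called.

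In the list on control of glycolysis 13 of 14 genes were measured, and 6 were higher and 5 lower, with a median of 0.06 beside -0.09 over all genes. Prkaa2, a catalytic subunit of the energy sensor AMPK, was higher by 1.94 (SE 0.09, adjusted p = 2.9e-10), and Tigar, which lowers the activator of phosphofructokinase, by 0.69 (1.3e-09). Myc, a transcription factor of growth and glycolysis genes, was lower by 1.21 (SE 0.06, adjusted p = 8.7e-10). Pfkfb1, a maker of that activator known from liver and muscle, was lower by 0.13 on the log2 scale (adjusted p = 0.0141). Of the 17 pyruvate and lactate genes, 9 were higher and 3 lower, beside the same 23.3% and 40.7% of all genes, with a median of 0.11. Pdk4, a kinase that shuts pyruvate dehydrogenase, was higher by 1.68 (SE 0.07, adjusted p = 2.8e-10), Pdhx, a subunit of that complex, by 1.37 (1.8e-09), and Pdp2, a phosphatase that reopens it, by 0.86 (6e-07). Of the 19 glycogen and branch genes, 5 were higher and 10 lower, beside 23.3% and 40.7%, with a median of -0.14. Pygm, the muscle glycogen phosphorylase, was higher by 2.36 (SE 0.05, adjusted p = 1.9e-13), Phkg1, a muscle phosphorylase kinase subunit, by 1.42 (2.4e-09), and Pygb, the brain phosphorylase, by 1.06 (1.1e-09).

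**Figure D5:**
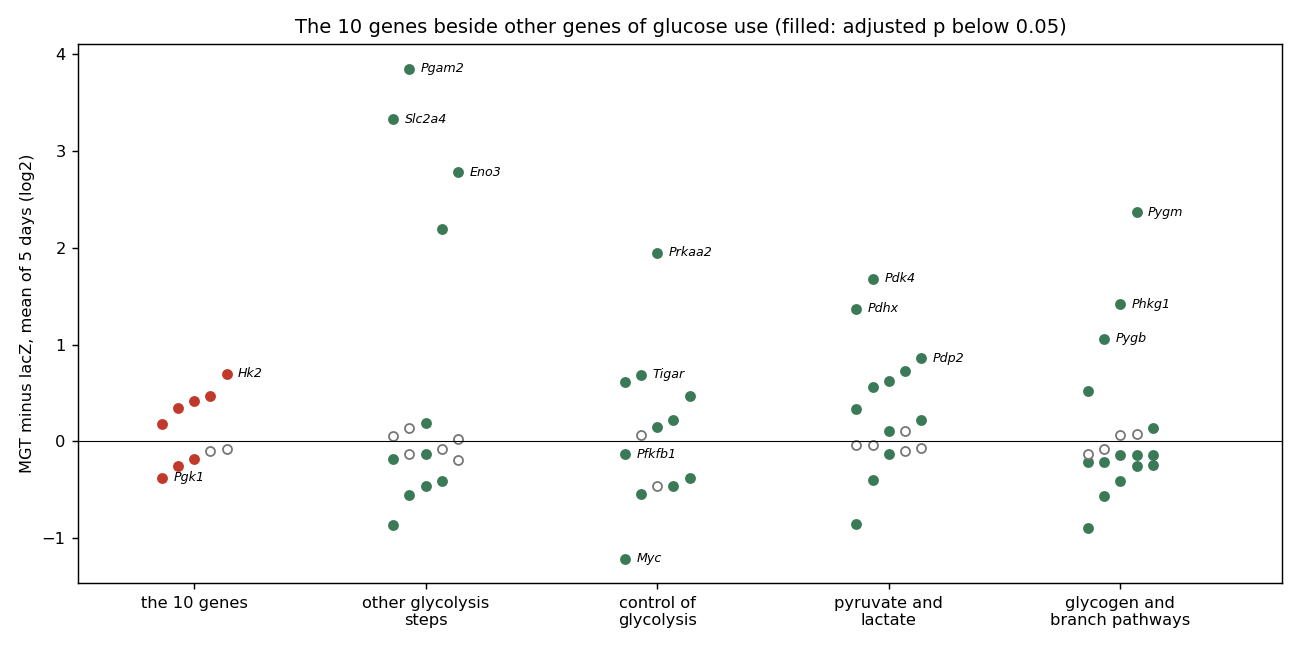
Averaged difference between MGT and lacZ (log2, mean of 5 days) for the 10 genes (red) and for 4 lists of other genes of glucose use (green), 1 point per measured gene, spread sideways for legibility. Filled points had an adjusted p below 0.05. The 10 genes lie between -0.37 (Pgk1) and 0.70 (Hk2), while Pgam2, Slc2a4, Eno3 and Pygm lie between 2.36 and 3.85. Aldoa and Pfkfb1, also listed as muscle isoforms, lie at -0.18 and -0.13.

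For each of the 10 genes the pattern over the 11 group means was set against those of the 12392 genes well above background on all arrays. These are correlations across groups that share arrays and slides, given as a description. Pfkm was most like Slc44a2 (Pearson r = 0.992) and Vmac (0.991), and Pfkl most like Pdk1 (0.981) and Bnip3 (0.972). Hk1 was most like Pam (0.977) and Camk1g (0.923), Hk2 like Ttll11 (0.929) and Snx30 (0.928), and Pfkp like P3h2 (0.944) and Slc35g3 (0.933). Aldoa was most like Csf2ra (0.962) and Unc93b1 (0.956), Pgk1 like Arap3 (0.969) and Grap (0.968), Ldha like Fth1 (0.943) and Srp72 (0.925), and Slc2a1 like Iba57 (0.901) and Csprs (0.896). Ldhb followed Fbxl20 (0.983) after its pseudogene.

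Many glycolysis genes are known targets of the hypoxia-inducible factor HIF-1, which binds a core of the letters ACGTG. The 250 bases before each start site listed by RefSeq (GRCm38.p6) were searched for this core on both strands, where it reads CACGT on the other strand and also lies inside the letters CACGTG bound by other factors. All 10 genes matched the table, with 17 listed promoters, since some genes have several. The core lay in 8 of these 17 promoters (47.1%), against 5444 of all 32851 promoters (16.6%). Genes holding it in at least 1 promoter were Slc2a1, Hk2, Pfkm, Aldoa, Pgk1 and Ldha, and no share per gene was computed over all genes. Windows of Aldoa overlap each other, as do windows of Pfkm, so the 47.1% counts some bases more than once. A match is a run of letters and no evidence of binding. The windows of Hk2 and Pgk1 are printed because these had the highest and lowest averaged difference between MGT and lacZ of the 10 genes. Each held 2 cores, in capitals, at chr6:82774455-82774704 (minus strand) and chrX:106186850-106187099 (plus strand).
Hk2: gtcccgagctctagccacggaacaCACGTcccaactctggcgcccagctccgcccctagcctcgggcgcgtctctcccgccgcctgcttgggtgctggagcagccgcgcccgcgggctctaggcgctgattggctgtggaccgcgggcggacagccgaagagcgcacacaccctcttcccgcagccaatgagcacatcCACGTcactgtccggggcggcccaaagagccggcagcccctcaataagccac
Pgk1: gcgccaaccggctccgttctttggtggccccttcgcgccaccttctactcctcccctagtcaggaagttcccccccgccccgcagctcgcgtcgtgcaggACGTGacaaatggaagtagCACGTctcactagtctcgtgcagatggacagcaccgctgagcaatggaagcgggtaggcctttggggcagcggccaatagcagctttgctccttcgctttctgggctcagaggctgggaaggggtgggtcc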

How the data were processed

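Total RNA of 22 samples in 11 groups of 2 was hybridised to Agilent mouse 8x60K arrays with 1 dye. Per the file headers, Agilent Feature Extraction 10.7.3.1 made the deposited spot intensity, with background subtracted and no normalization between arrays. The authors also deposited a table with 1 intensity per gene name, whose scale and making are not given in the sources used here. The submitters' processing notes name limma. The column medians lay between 198 and 206, and the table served as an alternative only.

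The deposited intensity was put on the log2 scale, and the 75th percentile of the non-control spots of the array was subtracted. Outlier spots were removed, and none was saturated. Probes had to exceed background clearly on both arrays of some group (38800 kept, 16881 left out), and the brightest probe stood for a gene, since levels of different probes are not comparable. Of 55681 probes 30186 were named, mostly by accession, and probe coordinates are those of the files (mm9). One limma 3.58.1 model with 11 group means was fitted in R 4.3.3 (11 residual degrees of freedom), with Benjamini-Hochberg adjustment over all genes. The number of arrays limits the precision. The script was tested on simulated data.

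Named genes were the 10 genes themselves, the 2 most alike genes of each by Pearson r over group means, and, from each list, the 3 genes with the largest averaged difference that passed the test and the muscle isoforms Slc2a4, Pgam2, Eno3, Pygm, Pfkfb1 and Fbp2. Fbp2 was not measured. Aldoa, among the 10 genes, was listed as a muscle isoform too. The genes and lists were chosen with earlier results of these data known. Alternatives were normexp background correction (offset 50), quantile normalization, the 75th percentile over probes above background on every array, the deposited table, the mean of a gene's probes, other filters on dim probes, a replicate block, values within slides, only the arrays compared, and leaving out each array. Day 10 in place of day 14 was added after the data were seen.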

Additional observations from a re-analysis of the deposited data

Results flagged for a closer look

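For 5 of the 10 genes the difference between MGT and lacZ at day 14 differed from that at day 3 by the test of the change itself (limma, Benjamini-Hochberg over all genes). Upward changes were called for 12.3% of all genes and downward changes for 15.2%. Day 3 lies within 1 slide and day 14 spans 2, so at day 14 slide and group cannot be told apart. Hk2 changed by 1.07 (adjusted p = 0.000583), with a difference of 1.09 at day 14 and 0.02 at day 3, and the day 7 and day 10 differences, each within a slide, were 0.98 and 0.99. Ldhb changed by -1.19 (adjusted p = 0.000838), with -0.08 at day 14 and 1.11 at day 3. Pfkm changed by -0.40 (adjusted p = 0.00339), with 0.27 at day 14 and 0.67 at day 3. Ldha changed by -0.76 (adjusted p = 0.00267) on the used probe, and the 2 other probes gave 0.21 and 0.01. Pfkp changed by 0.32 (adjusted p = 0.0431), a value that was -0.03 with day 10 in place of day 14, and its other probe gave 0.09. Hk1 is not among the 5 genes, but its other probe, from base 2983, changed by 1.05 (adjusted p = 0.00774).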

How the results depend on the processing

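Of 1655 recomputed values 1489 kept their direction and side of the threshold, 110 kept the direction and no longer passed, 39 newly passed and 17 reversed. The reversals concern the bright genes and Pfkp. With quantile normalization the differences for Aldoa were 0.11 averaged, 0.41 for the change and 0.35 at day 14, those for Ldha 0.025 averaged, 0.20 at day 7, 0.19 at day 10 and 0.17 for day 14 MGT against day 0, and that for Pgk1 0.030 at day 14. With the deposited table Aldoa gave 0.089 averaged and 0.31 at day 14, and Ldha 0.059 for the change, -0.25 for day 3 MGT and 0.33 for day 14 MGT against day 0. The mean of the probes gave Ldha -0.31 for day 3 MGT, 0.18 for day 14 MGT and -0.18 for day 3 lacZ against day 0. Pfkp changed by -0.028 with day 10 in place of day 14. The cause was not tested, except that the mean of the probes adds probes that read other values.

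Called genes numbered 5 of 10, against 8, in the averaged comparison within slide 2, where 4 MGT and 4 lacZ arrays enter. For the change over time they numbered 3 with day 10 and 3 with only the arrays compared, against 5. At day 5 the deposited table gave 5 against 8. At day 10 the count was 3 with the deposited table, 3 with normexp, 3 with the replicate block and 1 with only the arrays compared, against 5, and at day 14 it was 1 with only the arrays compared, against 6. These last fits have fewer arrays to set the spread. Over all genes, calls fell to 2861 for the change with day 10 and 3291 with only the arrays compared, against 4976, to 3289 against 7107 at day 10 and to 2699 against 8589 at day 14. Within slide 2 the averaged calls over all genes were 9070, against 11543. The deposited table, with 34378 gene names, gave 6818 at day 5 and 7057 at day 10. Main calls were 6874 and 7107 of 18056 genes. At day 10 all-gene calls were 5411 with normexp and 6690 with the replicate block. Leaving out 1 array gave 4 to 5 genes at day 5 and 2 to 4 at day 10. Over all genes it gave 5185 to 5643 at day 5 and 5333 to 6658 at day 10.

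Within slide 1 the adjusted permutation p was 0.0926 for Pfkm over Pfkl (0.68), Pfkp over Pfkl (0.51) and Ldhb over Ldha (1.19) and 0.208 for Hk2 over Hk1 (0.18). Within slide 2 it was 0.139 (0.47), 0.167 (0.30), 0.0926 (0.23) and 0.0926 (0.67), and neither slide can pass. Pfkm over Pfkp was 0.17 over both. Deviations of same-numbered arrays correlated between -0.03 and 0.09 on the 5 days, so the numbers are not taken to pair the arrays. With a replicate block the averaged comparison had 9 of the 10 genes called against 8, and 11347 against 11543 over all genes. The block ended the calls of Hk1 at day 10 (adjusted p = 0.0781) and of Pfkp at day 7 (0.0971), at day 10 (0.057) and for the change (0.105), and added calls of Slc2a1 averaged (0.0139), at day 5 (0.021) and for day 3 MGT against day 0 (0.0288). Dim spots were no limit, since all 10 genes lay well above background on every array with a value.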
